A study of Arabidopsis thaliana with 10 samples.

Results

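Seedlings of the Arabidopsis thaliana triple mutant atbmi1abc were compared with seedlings of the strong double mutant atbmi1ab_strong, so the question addressed is what differs when the label adds a mutation of the third AtBMI1 gene. Both genotypes carry mutations of AtBMI1A and AtBMI1B and are in the Col-0 ecotype. The comparison used 4 of the 10 RNA-seq libraries, 2 per genotype, with no selection of loci. Of the 27086 loci listed, 19460 averaged 1 FPKM or more across all 10 libraries and entered the test. All libraries came from whole seedlings at 10 days after germination (DAG), and the other 6 were 2 each of the wild type (WT) and of the single mutants atbmi1a and atbmi1b. The labels name no alleles and no number of plants per library, and do not say that replicates are separate plants. The word "strong" is the label's own, and no source used here says how severity was judged.

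The AtBMI1 proteins are RING-finger subunits of Polycomb repressive complex 1 (PRC1), which attaches ubiquitin to histone H2A and keeps developmental genes silent. In Arabidopsis the B3-domain proteins VAL1 and VAL2 bind a DNA element called RY and bring PRC1 to genes of the seed maturation programme at germination. Polycomb repressive complex 2 (PRC2) places the methyl mark on lysine 27 of histone H3 at many of the same genes. Seedlings that lack PRC1 are known to keep or regain embryonic traits.

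Expression is given in FPKM (fragments normalized for gene length and sequencing depth), always per library, in the order replicate 1, replicate 2. Differences are the libraries labelled atbmi1abc minus those labelled atbmi1ab_strong on the log2(FPKM + 1) scale, with the standard error (SE) of the limma fit and the p adjusted over all tested loci by the Benjamini-Hochberg method. This scale understates the change of loci with low values. A locus was called where the adjusted p was under 0.05, and "rose", "fell", "higher" and "lower" below refer to the libraries labelled atbmi1abc against the double mutant. A locus listed at exactly 0 in both libraries of a genotype is given no fold, because such a 0 can be a failed estimate.

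The FPKM sums ranged from 808718 to 897252 in the 4 libraries compared, and read depth is not known from FPKM. Across tested loci the Pearson correlation of log2(FPKM + 1) was 0.986 between the double-mutant libraries, 0.977 between the triple-mutant libraries, and 0.807 to 0.831 between libraries of different genotypes. The triple-mutant libraries differed from each other by more than 1 on the log2 scale at 517 loci (2.66%), against 167 loci (0.858%) for the double-mutant pair.

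The targeted genes were examined first. AtBMI1C (AT3G23060), the gene added in the triple mutant, had 3.42 and 3.22 FPKM in the double mutant and 3.04 and 4.35 FPKM in the libraries labelled atbmi1abc. The ranges overlapped and the difference was 0.11 ± 0.18 (SE, adjusted p = 0.636), so the transcript level does not distinguish the genotypes. In WT the gene was at 0.136 and 0.0456 FPKM. AtBMI1B (AT1G06770) was at 1.70 and 1.91 FPKM in the double mutant and at 3.89 and 3.64 FPKM in the triple mutant, a rise of 0.77 ± 0.12 (adjusted p = 0.00108). AtBMI1A (AT2G30580, chromosome 2, 13025911 to 13030661 in TAIR10) had 7.89 and 9.19 FPKM against 10.3 and 13.7 FPKM, a rise of 0.44 ± 0.16 (adjusted p = 0.0493). In WT AtBMI1B was at 6.34 and 5.86 FPKM, above both mutants, and AtBMI1A at 6.91 and 6.08 FPKM, below both. The AtBMI1A call is lost without atbmi1ab_strong replicate 1 (adjusted p = 0.215), atbmi1ab_strong replicate 2 (0.0708) or atbmi1abc replicate 2 (0.272). FPKM is computed over a whole locus, so a transcript altered by a mutation would still be counted, and the genotypes were not checked further. Directions below rest on the labels, and "triple mutant" and "double mutant" stand for the libraries labelled atbmi1abc and atbmi1ab_strong.

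The genotypes differed at 11160 of the 19460 tested loci (57.3%), of which 6256 were higher in the triple mutant (32.1%) and 4904 were lower (25.2%). Many of the rises were small and the falls were larger. Past 1 on the log2 scale there were 1005 higher loci (5.16%) and 3045 lower loci (15.6%), and past 2 there were 193 higher (0.992%) and 1401 lower (7.2%). Called loci listed at 0 in both libraries of a genotype, 8 in the double and 170 in the triple mutant, were not left out of these counts. CRA1 and CRU3, from which no change is read below, are among the loci higher by more than 2. The median difference over all tested loci was 0.10. The values of the pairs of libraries did not overlap at 15724 tested loci (80.8%), all 11160 called loci among them. A lack of overlap alone thus separates few loci from the rest.

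**Figure D1:**
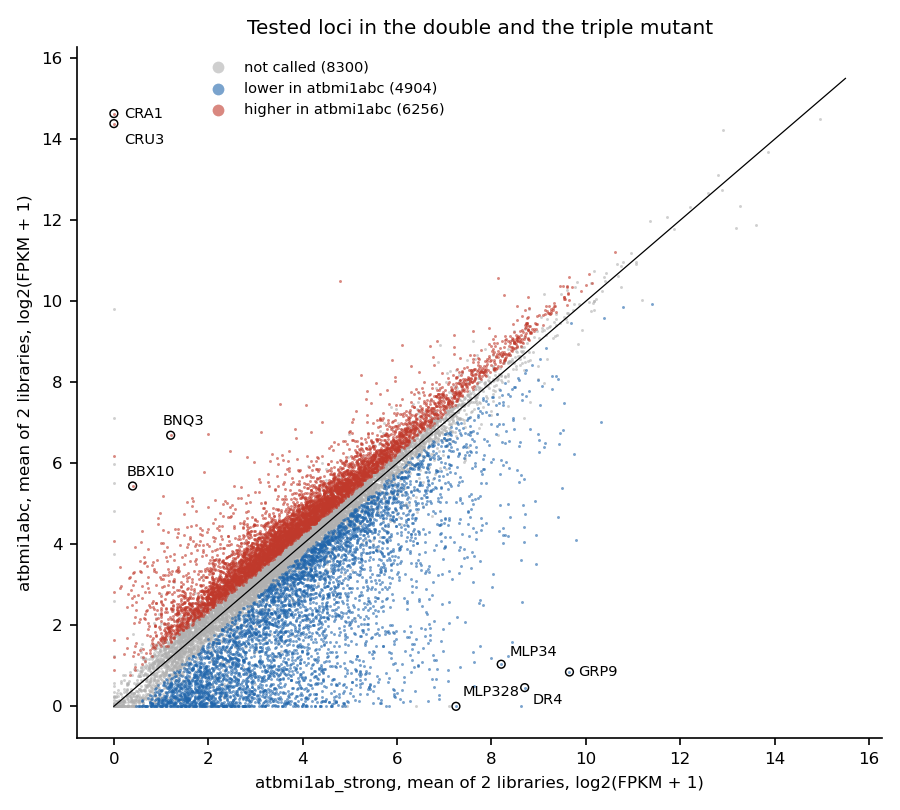
Every tested locus, with the mean log2(FPKM + 1) of the 2 double-mutant libraries on the x axis and of the 2 triple-mutant libraries on the y axis, coloured by call; the line marks equal levels. Called loci reach further below the line (1401 lower by more than 2) than above it (193 higher by more than 2), and CRA1 and CRU3 sit apart at 0 on the x axis.

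The 10 highest called loci with a symbol were regulators of development together with defence and metabolic genes. BNQ3, a small helix-loop-helix protein that lacks a DNA-binding region, was at 2.61 and 0 FPKM in the double mutant and 112 and 93.1 FPKM in the triple mutant, a rise of 5.76 ± 0.57 (adjusted p = 0.000123) that rests partly on the library at 0. BBX10, a B-box zinc-finger protein, was at 0.312 and 0.323 FPKM against 56.6 and 28.1 FPKM, a rise of 4.96 ± 0.33 (adjusted p = 1.63e-05). Both were near the floor of the double mutant and well expressed in both triple-mutant libraries. VIM5, of a family whose best-known member maintains CG methylation of DNA, went from 4.65 and 4.32 FPKM to 75.6 and 81.5 FPKM (3.86 ± 0.40, adjusted p = 0.000149). WOX2, a homeobox regulator of the apical embryo, went from 0.636 and 1.21 FPKM to 30.2 and 17.7 FPKM (3.67 ± 0.25, adjusted p = 1.77e-05). ASPGB1, an asparaginase that breaks down asparagine, went from 8.05 and 7.40 FPKM to 93.7 and 123 FPKM (3.63 ± 0.27, adjusted p = 2.81e-05). A lack of overlap between the genotypes was part of the rule that picked these loci. The other 5 were PDF1.3 (a defensin, 3.52), MYB62 (a MYB factor, 3.50), FPF1 (a promoter of flowering, 3.48), SBP3 (a selenium-binding protein, 3.38) and PRF5 (an actin-binding profilin, 3.33), with adjusted p from 3.24e-06 to 0.00032. In WT, BBX10, FPF1 and PRF5 were listed at 0 and SBP3 was at 15.2 and 14.1 FPKM.

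The promoters of 4 of these 10 loci held the RY core, CATGCA, in the 300 bases before the RefSeq start (TAIR10.1), on one strand or the other. They are printed 5′ to 3′ on the strand of the gene, with those of 2 seed storage genes, CRA1 and SESA3, whose family is the textbook target of RY-binding factors. Capitals mark the RY core (CATGCA, read TGCATG from the other strand), whose share among promoters is given below. Capitals also mark the G-box (CACGTG, the same on both strands). The third motif in capitals, common in abscisic acid-responsive promoters, is ACGTGG on either strand. The G-box and the third motif share bases where they overlap, and overlapping matches run together.
BNQ3, chr3:17590244-17590543, plus strand: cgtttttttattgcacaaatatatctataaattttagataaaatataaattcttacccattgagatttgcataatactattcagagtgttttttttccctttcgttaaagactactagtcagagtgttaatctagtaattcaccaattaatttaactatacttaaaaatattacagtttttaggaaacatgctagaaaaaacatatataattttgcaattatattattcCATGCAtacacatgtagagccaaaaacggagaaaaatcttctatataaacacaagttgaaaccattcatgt
BBX10, chr3:7705957-7706256, plus strand: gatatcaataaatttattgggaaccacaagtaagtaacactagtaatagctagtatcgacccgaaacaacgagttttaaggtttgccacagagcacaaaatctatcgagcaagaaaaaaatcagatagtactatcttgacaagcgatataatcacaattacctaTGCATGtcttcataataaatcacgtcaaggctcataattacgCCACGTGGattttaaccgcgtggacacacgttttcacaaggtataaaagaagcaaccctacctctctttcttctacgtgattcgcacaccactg
MYB62, chr1:25603376-25603675, plus strand: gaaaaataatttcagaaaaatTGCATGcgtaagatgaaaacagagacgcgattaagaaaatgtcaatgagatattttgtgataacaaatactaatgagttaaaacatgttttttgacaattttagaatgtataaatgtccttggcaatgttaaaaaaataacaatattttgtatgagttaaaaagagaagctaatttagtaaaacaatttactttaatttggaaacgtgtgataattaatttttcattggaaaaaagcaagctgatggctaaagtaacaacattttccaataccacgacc
PRF5, chr2:8521276-8521575, minus strand: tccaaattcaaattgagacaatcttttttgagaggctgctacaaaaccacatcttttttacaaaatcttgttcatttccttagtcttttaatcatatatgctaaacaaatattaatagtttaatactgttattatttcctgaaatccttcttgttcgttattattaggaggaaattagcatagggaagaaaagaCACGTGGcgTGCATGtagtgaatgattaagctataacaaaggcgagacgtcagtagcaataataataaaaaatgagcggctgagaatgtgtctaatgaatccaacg
CRA1, chr5:17758337-17758636, minus strand: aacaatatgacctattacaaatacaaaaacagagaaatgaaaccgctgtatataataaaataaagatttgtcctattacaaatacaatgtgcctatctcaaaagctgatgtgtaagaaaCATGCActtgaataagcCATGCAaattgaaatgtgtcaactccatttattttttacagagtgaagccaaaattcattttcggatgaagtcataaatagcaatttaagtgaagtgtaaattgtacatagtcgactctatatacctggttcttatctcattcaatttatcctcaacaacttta
SESA3, chr4:13611496-13611795, plus strand: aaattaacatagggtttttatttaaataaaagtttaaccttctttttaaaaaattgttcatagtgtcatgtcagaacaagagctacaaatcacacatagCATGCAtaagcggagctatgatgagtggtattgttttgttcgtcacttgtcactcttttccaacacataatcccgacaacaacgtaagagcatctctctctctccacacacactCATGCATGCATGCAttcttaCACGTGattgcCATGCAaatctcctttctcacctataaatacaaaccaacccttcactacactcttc
The BNQ3 match lies close to the transcript start, that of MYB62 near the far end of the window. BBX10 and PRF5 also hold a G-box, and SESA3 holds 7 RY matches.

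The share of promoters with the RY core was larger among loci with larger rises. It was 10.4% of all 26167 promoters and 10.1% of those of tested loci. Among loci higher by more than 2, which include CRA1 and CRU3 with their zeros, it was 67 of 191 promoters (35.1%). Among those higher by 1 to 2 it was 144 of 805 (17.9%), and among those higher by at most 1 it was 8.74%. Among lower loci the share ran from 7.77% for falls of at most 1 to 12% for falls of more than 2 (166 of 1389), and it was 9.76% where no call was made. The G-box was in 7.11% of all promoters, 8.26% of those of tested loci and 6.81% of those higher by more than 2. For the third motif these shares were 9.15%, 10.2% and 11.5%. These shares describe letters in a window, with no test, and 15 of 16 storage genes and 5 of 21 embryo regulators held the RY core.

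**Figure D2:**
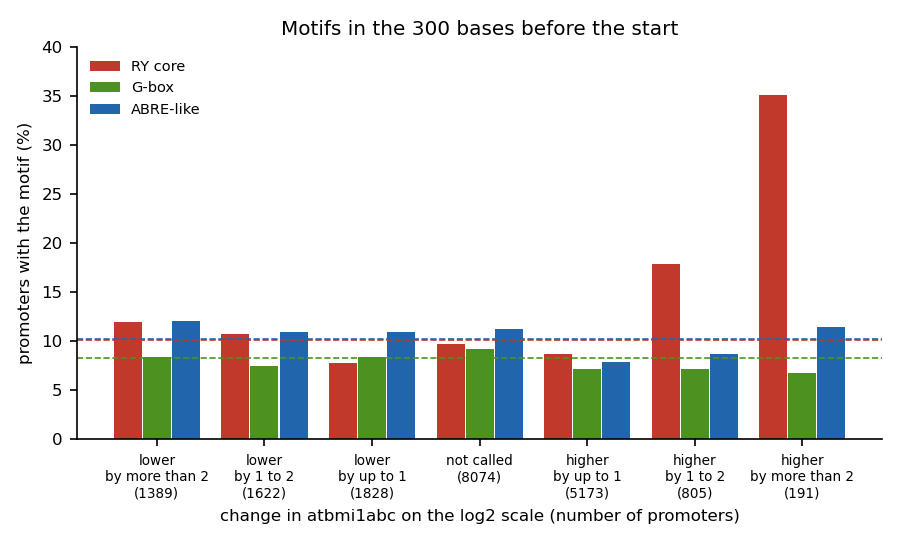
Percentage of promoters (300 bases) with at least 1 match on either strand to each motif, for loci grouped by call and by log2 difference (x axis, number of promoters in brackets); ABRE-like is the third motif, and the dashed lines are the shares over tested loci. The RY core reaches 35.1% among loci higher by more than 2, against 10.1% of tested loci.

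The 10 lowest called loci were highly expressed in the double mutant and near 0 in the triple mutant. GRP9, a glycine-rich protein, fell from 779 and 829 FPKM to 0.729 and 0.869 FPKM (-8.81 ± 0.10, adjusted p = 1.77e-08). DR4, a drought-repressed relative of protease inhibitors, fell from 331 and 502 FPKM to 0.431 and 0.324 FPKM (-8.21 ± 0.18, adjusted p = 2.35e-07). MLP34, of the major latex protein family, fell from 277 and 312 FPKM to 1.59 and 0.520 FPKM (-7.22 ± 0.22, adjusted p = 5.74e-07). Every library of the triple mutant lay far below both of the double mutant at these loci, which were picked for not overlapping. ASN1, an asparagine synthetase, fell from 153 and 83.3 FPKM to 0.280 and 0.132 FPKM (-6.57 ± 0.35, adjusted p = 5.48e-06), the opposite direction to the asparaginase ASPGB1. The other 6 were DOT1 (-7.16), the glucosinolate enzymes BCAT4 (-6.53) and IMS2 (-6.15), the protease inhibitor KTI1 (-6.44), the ethylene-response factor RAP2.6 (-6.35) and the vacuolar water channel TIP2;2 (-6.29), with adjusted p from 2.35e-07 to 3.25e-06. All 10 were also expressed in WT, from 6.34 FPKM for RAP2.6 to 1033 FPKM for DR4.

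Some loci were listed at 0 in both libraries of a genotype. CRA1 and CRU3, which encode 12S seed storage globulins, were listed at 0 in the double mutant and were at 22377 and 28378 FPKM and at 17461 and 25294 FPKM in the triple mutant. Both were at 11.2 to 14.2 FPKM in WT, and the other tested storage genes of the double mutant were at 846 FPKM or more, so no change is read from these zeros. NAC049, PAP23 and LCR72 were also listed at 0 in the double mutant, and reached at most 4.87 FPKM in the triple mutant. In the other direction MLP328 was at 153 and 149 FPKM in the double mutant and listed at 0 in the triple mutant, as were DIR5 (57.8 and 48.6 FPKM), CLE5, EDA21 and MIOX4. Of the called loci, 8 were listed at 0 in both double-mutant libraries and 170 in both triple-mutant libraries.

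Many transcripts of the Polycomb machinery rose in the triple mutant. Of 11 tested genes of PRC1 and its partners 6 rose and none fell (median 0.43). The 6 were RING1A, RING1B, VAL1, VAL2 and the mutated genes AtBMI1B and AtBMI1A, the last with the fragile call given above. Of 9 tested PRC2 genes 6 rose and 1 fell (median 0.49). Over all tested loci the median was 0.10, and 32.1% rose and 25.2% fell. RING1A, a RING-finger partner of AtBMI1, went from 9.22 and 12.1 FPKM to 21.3 and 24.0 FPKM (1.03 ± 0.14, adjusted p = 0.000564), and its relative RING1B rose by 0.64. VAL1, which binds RY, went from 39.1 and 40.6 FPKM to 62.0 and 74.9 FPKM (0.76 ± 0.12, adjusted p = 0.00117). VAL2 rose by 0.43 (adjusted p = 0.00492), whereas EMF1 (-0.11, adjusted p = 0.47) and LHP1 (0.16, adjusted p = 0.197), which bind or spread the PRC2 mark, were not called. In PRC2, VIN3, which acts in vernalization, went from 1.02 and 1.42 FPKM to 7.89 and 9.14 FPKM (4.30-fold on FPKM + 1, adjusted p = 2.66e-05). The core subunits FIE (0.82), MSI1 (0.55), SWN (0.49) and VRN2 (0.49) also rose. VEL1, a relative of VIN3, fell from 30.4 and 27.7 FPKM to 19.9 and 18.5 FPKM (-0.57 ± 0.09, adjusted p = 0.0011). EMF2 (0.32, adjusted p = 0.0223) is lost without any 1 of the 4 libraries (adjusted p 0.0621 to 0.0878), and MSI1 is lost without atbmi1ab_strong replicate 1 or atbmi1abc replicate 2 (0.0572 to 0.0604).

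Of 17 tested regulators of embryogenesis and seed maturation 10 rose, 1 fell and 6 were not called, with a median of 1.09, beside 32.1% of all tested loci that rose. LEC1, a master regulator of embryo identity, was at 1.22 and 0.878 FPKM in the double mutant and at 14.7 and 15.7 FPKM in the triple mutant, a rise of 2.99 ± 0.26 (adjusted p = 6.48e-05). WOX9, a homeobox gene of the early embryo, went from 0.372 and 0.110 FPKM to 6.68 and 9.42 FPKM (2.86 ± 0.19, adjusted p = 1.64e-05), and its close relative WOX8 from 1.81 and 2.34 FPKM to 15.3 and 17.8 FPKM (2.51). Both libraries of the triple mutant were above both of the double mutant for these genes, but no called locus had overlapping groups. BBM, an AP2 factor that can induce somatic embryos, rose from 12.8 and 15.1 FPKM to 50.5 and 62.1 FPKM (1.94 ± 0.26, adjusted p = 0.000628). ABI4 (1.78), AGL15 (1.09) and WRI1 (1.37), the activator of oil synthesis, also rose. FUS3, a B3 regulator of maturation that binds RY, went from 54.9 and 56.3 FPKM to 179 and 169.9 FPKM (1.63 ± 0.54, adjusted p = 0.0339). The calls for FUS3 and AIL5 (0.77, adjusted p = 0.042) are lost without any 1 of the 4 libraries, with adjusted p of 0.0973 to 0.114 for FUS3 and 0.0982 to 0.158 for AIL5. ABI3, the other central B3 regulator, was at 47.0 and 54.8 FPKM against 101 and 111 FPKM and L1L, a relative of LEC1, at 105 and 119.9 FPKM against 225 and 239 FPKM, and neither was called (1.04 ± 0.45, adjusted p = 0.0781, and 1.04 ± 0.61, adjusted p = 0.177). ABI5, a bZIP factor of abscisic acid signalling, was the member that fell, from 23.6 and 28.9 FPKM to 11.2 and 17.3 FPKM (-0.86 ± 0.26, adjusted p = 0.022), and that call is lost without atbmi1ab_strong replicate 2 (0.117) or atbmi1abc replicate 1 (0.129).

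Seed storage and oil-body transcripts were abundant in both mutants, and most did not pass the test, which 57.3% of all tested loci did. The 16 genes of the list summed to 92535 and 109893 FPKM in the double mutant and 118654 and 142088 FPKM in the triple mutant, 11.4% and 13.6% against 13.8% and 15.8% of the FPKM sum of each library. Without CRA1 and CRU3, which are listed at 0 in the double mutant, the direction turns: the triple-mutant sums were 78816 and 88415 FPKM (9.19% and 9.85%), below those of the double mutant. In WT the sums of all 16 were 80.9 and 68.8 FPKM. Of 15 tested, 2 were called, CRA1 and CRU3 with their zeros in the double mutant, and the median of the others was -0.09. SESA3, a 2S albumin, had 29228 and 34820.1 FPKM against 22033 and 24119.6 FPKM (-0.47, adjusted p = 0.808). SESA1, its neighbour, had 8744 and 9849 FPKM against 3277 and 3880.1 FPKM (-1.38 ± 1.16, adjusted p = 0.339), and CRU2, a globulin, 8906 and 10854 FPKM against 4454 and 5975 FPKM (-0.93 ± 1.33, adjusted p = 0.574). The oleosin OLEO1, a coat protein of oil bodies, had 13409 and 16195 FPKM against 11562 and 14665 FPKM (-0.18 ± 1.56, adjusted p = 0.932). Differences of members lay on both sides of 0, and reads may be split between the near-identical albumins.

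The wide errors moved with 1 library outside the comparison. The storage list summed to 3385 FPKM in atbmi1a replicate 1 and to 55.5 FPKM in atbmi1a replicate 2, and these libraries share the estimate of the spread. Without atbmi1a replicate 1, an alternative chosen after seeing the data, SESA1 (adjusted p = 0.00011), CRU2 (adjusted p = 0.00324) and SESA5 (adjusted p = 0.0371) fell by the sizes given or, for SESA5, by 0.62, and OLEO3 rose by 0.62 (adjusted p = 0.00477). With only the 4 libraries compared, SESA1 (adjusted p = 0.0119) and OLEO3 (0.0475) pass, whereas CRU2 (0.0586) and SESA5 (0.0634) do not. FUS3 (adjusted p = 2.56e-05), ABI3 (adjusted p = 0.00031), L1L (adjusted p = 0.000396) and AIL5 (adjusted p = 0.000605) all pass the test without atbmi1a replicate 1, with the same differences, and also with only the 4 libraries (adjusted p 0.000603 to 0.00397).

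Genes listed with the late embryogenesis abundant (LEA) proteins, which protect dry seeds, were not called as a rule. The list also holds PER1, a peroxiredoxin. Of 9 tested 1 rose and 1 fell, with a median of 0.19, beside 57.3% of all tested loci that were called. M17 rose from 0.778 and 0.605 FPKM to 2.80 and 1.82 FPKM (0.95 ± 0.22, adjusted p = 0.00786). RAB18, an abscisic acid-induced dehydrin, fell from 96.7 and 158 FPKM to 10.2 and 33.9 FPKM (-2.66 ± 0.55, adjusted p = 0.00461). Without atbmi1a replicate 1 the counts are 2 higher and 3 lower, with ECP63 and the LEA gene AT3G15670 joining RAB18 and XERO1 joining M17. With only the 4 libraries compared, AT3G15670 is called (adjusted p = 0.0483), and ECP63 (0.0571) and XERO1 (0.11) are not.

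**Figure D3:**
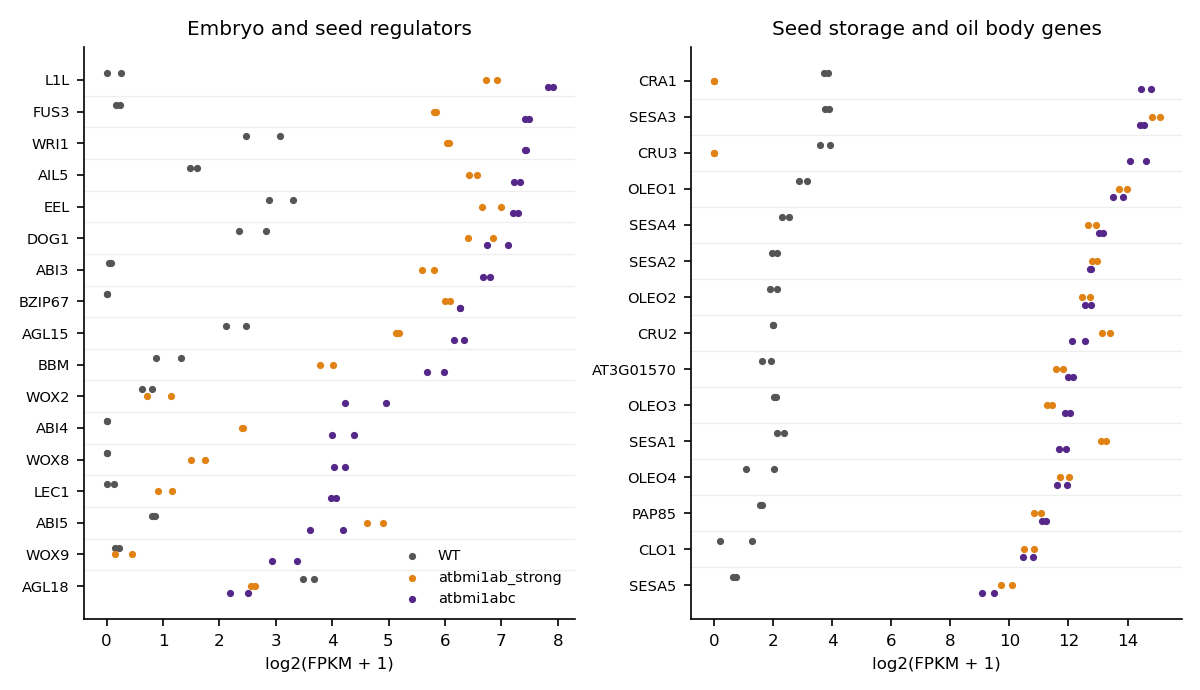
Levels of the tested embryo regulators (left) and seed storage and oil-body genes (right), with log2(FPKM + 1) on the x axis and 1 point per library, coloured by genotype. LEC1, WOX8, WOX9 and BBM are higher in both triple-mutant libraries than in the double mutant, SESA1 and CRU2 are lower without being called, and CRA1 and CRU3 are at 0 in the double mutant.

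Of 13 tested genes of oil synthesis 7 rose, none fell and 6 were not called, with a median of 0.29. This count and that of oil breakdown stand beside 32.1% of all tested loci that rose and 25.2% that fell. KAS1, a plastid enzyme of fatty acid elongation, went from 276 and 265 FPKM to 555 and 565 FPKM (1.05 ± 0.11, adjusted p = 0.00014), and BCCP2, a subunit of acetyl-CoA carboxylase, from 189.7 and 205 FPKM to 296 and 341 FPKM (0.69 ± 0.13, adjusted p = 0.0027). The acyltransferases LPAT2 (0.58), DGAT1 (0.59, adjusted p = 0.0498) and PDAT1 (0.29), the desaturase FAD2 (0.32) and the dehydrogenase GPDHC1 (0.52) made up the rest. The count is 4 without atbmi1ab_strong replicate 2 or without atbmi1abc replicate 2, and DGAT1 is lost without any 1 of the 4 libraries (adjusted p 0.0814 to 0.194). FAD2 is lost without atbmi1ab_strong replicate 1 or 2 or atbmi1abc replicate 2 (0.0515 to 0.133), and PDAT1 without atbmi1ab_strong replicate 2 or atbmi1abc replicate 1 or 2 (0.067 to 0.257). Among 12 genes of oil breakdown and the glyoxylate cycle 2 rose and 4 fell (median 0.13). ACX1, an acyl-CoA oxidase, fell from 118 and 107 FPKM to 54.0 and 55.1 FPKM (-1.03 ± 0.07, adjusted p = 2.15e-05), and the lipase SDP1, which starts oil breakdown, fell from 17.1 and 12.2 FPKM to 8.13 and 6.55 FPKM (-0.90 ± 0.17, adjusted p = 0.00267). ACX2 (-0.62) and PCK1 (-0.31) also fell, and CSY2 (0.59) and PXA1 (0.34) rose. PCK1 is lost without atbmi1ab_strong replicate 1 or 2 or atbmi1abc replicate 2 (0.0773 to 0.17), and PXA1 without replicate 1 of either genotype (0.0667 to 0.0724).

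**Figure D4:**
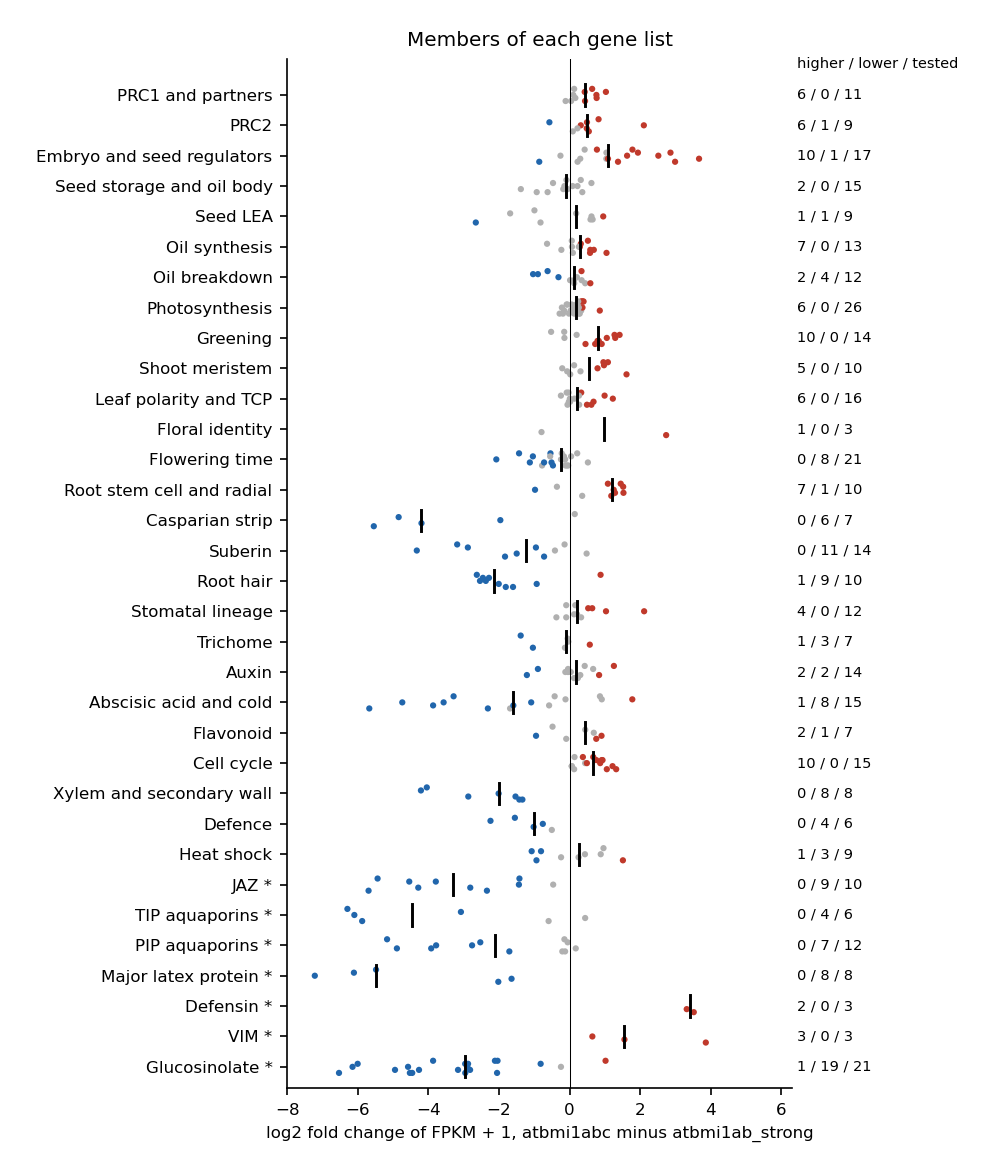
Differences of the members of each gene list on the log2(FPKM + 1) scale, triple minus double mutant. Each point is 1 tested gene, red where called higher, blue where called lower and grey where not called, genes listed at 0 in a genotype are left out, black bars are medians, and stars mark families chosen after the values were seen. The Casparian strip (median -4.19), root hair (-2.14) and xylem (-2.01) lists lie mostly below 0, and root stem cell (1.22) and embryo regulator (1.09) lists mostly above it.

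Root transcripts divided by role. Regulators of the root stem cell niche and of radial patterning included 7 that rose and 1 that fell among 10 tested, with a median of 1.22. Among all tested loci 32.1% rose and 25.2% fell. SCR, which specifies the endodermis and the quiescent centre, went from 32.7 and 34.1 FPKM to 70.6 and 73.4 FPKM (1.09 ± 0.11, adjusted p = 0.00013), and its interactors JKD (1.18) and MGP (1.29) rose too. PLT2, a stem cell regulator of the root tip, went from 1.54 and 2.32 FPKM to 6.06 and 8.90 FPKM (1.53 ± 0.23, adjusted p = 0.00111), and SMB, a root cap factor, from 1.78 and 1.61 FPKM to 5.63 and 7.99 FPKM (1.52 ± 0.17, adjusted p = 0.000219). The auxin carrier PIN2 (1.25) and the receptor kinase gene AT5G48940 (1.45) also rose. WOX5, which marks the quiescent centre, fell from 46.0 and 39.6 FPKM to 15.8 and 28.2 FPKM (-0.98 ± 0.32, adjusted p = 0.0325), a call lost without atbmi1ab_strong replicate 1 (0.138), atbmi1ab_strong replicate 2 (0.0771) or atbmi1abc replicate 1 (0.187).

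Most transcripts tested of differentiated root tissues fell in the triple mutant, beside 25.2% of all tested loci that fell. Of 7 tested Casparian strip genes, which build the lignin barrier of the endodermis, 6 fell and none rose (median -4.07 over the 7, and -4.19 without 2 listed at 0 in a genotype). The membrane scaffold gene CASP1 fell from 52.0 and 45.5 FPKM to 0 and 0.131 FPKM (-5.54 ± 0.13, adjusted p = 2.58e-07), and the peroxidase PER64, which polymerizes the lignin, from 32.6 and 27.6 FPKM to 0 and 0.169 FPKM (-4.84 ± 0.13, adjusted p = 3.6e-07). CASP2 (-4.19) and the activator of this family, MYB36 (-1.96), fell as well, and CASP4 and CASP5 were listed at 0 in the triple mutant after 10.8 to 15.8 FPKM in the double mutant. The folds of CASP1, CASP2 and PER64 rest partly on 1 library at 0. GSO1, a receptor kinase that monitors the barrier, was at 31.8 and 36.8 FPKM against 39.6 and 36.5 FPKM and was not called (0.15, adjusted p = 0.469). In WT these CASP genes were at 4.41 to 40.3 FPKM, beside 10.8 to 52.0 FPKM in the double mutant. RNA of whole seedlings does not tell fewer cells of a type from less RNA per cell.

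Most suberin, xylem and root-hair genes fell as well, again beside 25.2% of all tested loci that fell. Of 14 suberin genes, which form the waxy layer of the endodermis and outer tissues, 11 fell and none rose. The median was -1.94 over the 14, and -1.23 over the 10 not listed at 0 in a genotype. The feruloyl transferase ASFT fell from 31.2 and 40.9 FPKM to 0.715 and 0.956 FPKM (-4.33 ± 0.18, adjusted p = 1.64e-06), and the reductase FAR5 from 8.98 and 7.66 FPKM to 0.0475 and 0 FPKM (-3.18 ± 0.16, adjusted p = 4.67e-06). CYP86A1, which hydroxylates fatty acids, was at 16.3 and 13.3 FPKM in the double mutant and listed at 0 in the triple mutant. All 8 tested genes of xylem and secondary walls fell (median -1.87 over the 8, and -2.01 without 1 listed at 0). The xylem proteases XCP1 (28.2 and 22.4 FPKM against 0.199 and 0.664 FPKM, -4.21 ± 0.20, adjusted p = 2.87e-06) and XCP2 (-4.04) led them, followed by the laccase LAC4 (-2.87) and the cellulose synthases CESA8 (-2.01), CESA7 (-1.53) and CESA4 (-1.34). Of 10 root-hair genes 9 fell and 1 rose (median -2.14). The expansin EXPA18 fell from 14.5 and 15.4 FPKM to 1.89 and 1.29 FPKM (-2.63 ± 0.20, adjusted p = 3.14e-05), EXPA7 fell by 2.46, and RSL4, which drives hair growth, from 6.41 and 6.57 FPKM to 0.524 and 0.0938 FPKM (-2.54 ± 0.20, adjusted p = 3.48e-05). GL2, which represses hair fate in the other epidermal cells, rose from 2.87 and 2.90 FPKM to 5.81 FPKM or more in each library (0.88 ± 0.11, adjusted p = 0.000369).

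**Figure D5:**
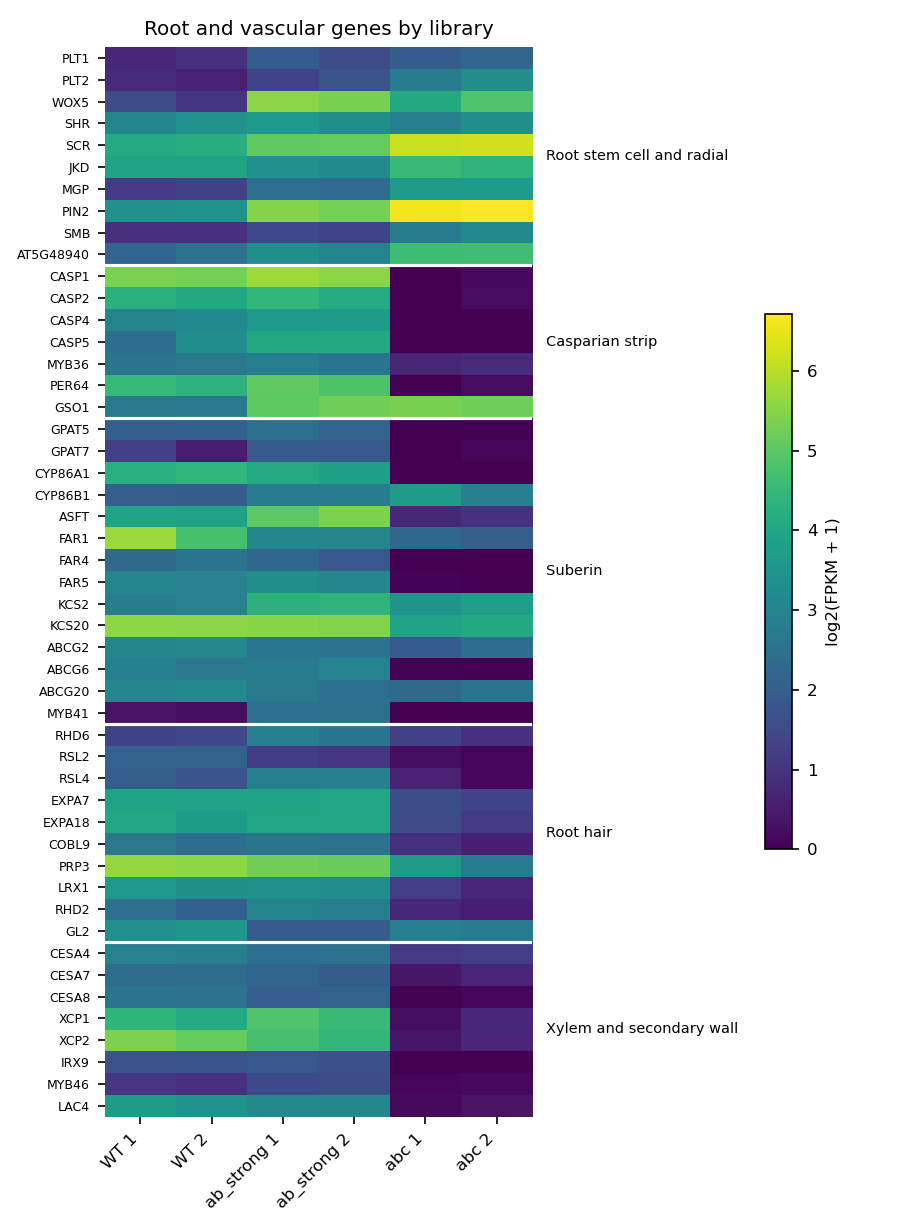
Heat map of log2(FPKM + 1) for root and vascular genes (rows, by list) in each library of WT, the double mutant (ab_strong) and the triple mutant (abc). The abc columns are the brightest for SCR and PIN2 and the darkest for CASP1, CASP2, CASP4, CASP5, XCP1 and XCP2.

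Many members of the families of water channels and major latex proteins fell. These families were chosen after the values were seen, so their counts describe the data and are no evidence of direction. Beside them, 25.2% of all tested loci fell. Of 6 tested vacuolar water channels (TIP) 4 fell (median -4.48), and of 12 plasma-membrane channels (PIP) 7 fell (median -2.12), with none higher in either. GAMMA-TIP fell from 427 and 378 FPKM to 5.63 and 4.24 FPKM (-6.10 ± 0.15, adjusted p = 2.58e-07), and PIP2B from 212 and 215 FPKM to 3.81 and 6.43 FPKM (-5.17 ± 0.19, adjusted p = 9.96e-07). All 8 tested major latex proteins fell (median -4.93 over the 8, and -5.48 without 3 listed at 0 in a genotype), among them MLP43 from 104 and 108 FPKM to 0.221 and 0.971 FPKM (-6.11 ± 0.19, adjusted p = 6.01e-07). Members of these families are similar in sequence, and how reads shared by copies were assigned is not known here.

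Glucosinolates are sulfur-rich defence compounds of the cabbage family. Of 21 genes of their synthesis and control 19 fell and 1 rose, with a median of -2.96. Of all tested loci 25.2% fell. This list too was chosen after the values were seen, so its count is no evidence of direction. Among the genes that extend and convert methionine, IMD1 fell from 85.9 and 78.5 FPKM to 0.166 and 0.444 FPKM (-6.00 ± 0.19, adjusted p = 6.01e-07) and CYP83A1 fell from 26.3 and 29.2 FPKM to 0.274 and 0.228 FPKM (-4.52 ± 0.15, adjusted p = 6.7e-07). The tryptophan branch fell too, with CYP79B3 (-4.57), CYP79B2 (-3.16) and CYP83B1 (-2.87), as did the regulators MYB28 (-2.90), MYB51 (-2.05) and MYB34 (-2.04). IMD3, a paralogue of IMD1, rose from 32.8 and 33.4 FPKM to 69.2 and 67.0 FPKM (1.02 ± 0.11, adjusted p = 0.000184).

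Many JAZ genes and genes of abscisic acid and cold response fell in the triple mutant. Of 10 JAZ repressors, which are induced by jasmonate and hold back its response, 9 fell and none rose (median -3.30). The JAZ family was chosen after the values were seen, so its count is no evidence of direction. Beside this count and that of abscisic acid and cold genes, 25.2% of all tested loci fell. JAZ7 fell from 64.0 and 62.7 FPKM to 0.141 and 0.356 FPKM (-5.69 ± 0.67, adjusted p = 0.000298) and JAZ10 from 198 and 187 FPKM to 13.4 and 12.6 FPKM (-3.79 ± 0.67, adjusted p = 0.00221). WT had 0.145 and 0.729 FPKM of JAZ7 and at most 2.52 FPKM of JAZ10. JAZ1, at 320.1 and 267 FPKM against 101 and 31.9 FPKM, fell by 2.34 (adjusted p = 0.0182), a call lost without atbmi1ab_strong replicate 1 or 2 or atbmi1abc replicate 2 (0.0593 to 0.11). Of 15 tested genes of abscisic acid and cold response 8 fell and 1 rose (median -1.59). The dehydrin COR47 fell from 1014 and 763 FPKM to 17.5 and 15.1 FPKM (-5.67 ± 0.18, adjusted p = 6.01e-07), ERD14 from 747 and 618 FPKM to 23.2 and 25.9 FPKM (-4.74), and ERD10 from 543 and 429 FPKM to 26.6 and 39.0 FPKM (-3.86). CYP707A2, which breaks down abscisic acid, rose from 4.61 and 4.12 FPKM to 19.8 and 15.2 FPKM (1.78 ± 0.20, adjusted p = 0.00024), and CYP707A1, of the same family, fell by 1.09 (adjusted p = 0.019). The CYP707A1 call is lost without atbmi1ab_strong replicate 1 or 2 or atbmi1abc replicate 2 (0.0718 to 0.109).

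Of 6 tested defence genes 4 fell (median -0.89 over the 6, and -1.02 without 1 listed at 0). For this count and those of defensins and heat-shock genes, the shares over all tested loci were 32.1% higher and 25.2% lower. EDS1, a hub of immune signalling, fell from 11.3 and 8.64 FPKM to 0.766 and 2.01 FPKM (-2.24 ± 0.39, adjusted p = 0.00214), and ICS1, which makes salicylic acid, from 24.3 and 14.2 FPKM to 5.79 and 5.64 FPKM (-1.55 ± 0.21, adjusted p = 0.00066). PAD3, of camalexin synthesis, fell by 1.02. PAD4, the partner of EDS1, fell by 0.76, a call lost without any 1 of the 4 libraries (adjusted p 0.052 to 0.18). Of 3 tested defensins 2 rose and 1 was not called. The defensin family was chosen after the values were seen, so its count is no evidence of direction. PDF1.3 and PDF1.2b were the 2 that rose, PDF1.2b from 0.681 and 1.43 FPKM to 17.3 and 21.3 FPKM (3.32 ± 0.21, adjusted p = 1.17e-05). These copies share much of their sequence. Of 9 heat-shock genes 1 rose, HSP90.1 (1.51, adjusted p = 0.0432), and 3 fell, HSFA3 (-1.07), HSP17.4 (-0.94) and HSP18.2 (-0.81), and each of these calls is lost without at least 2 of the 4 libraries, with adjusted p up to 0.174.

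Few photosynthesis genes passed the test, which 57.3% of all tested loci did. The 26 nuclear photosynthesis genes summed to 3595 and 4026 FPKM in the double mutant and 4165 and 4405 FPKM in the triple mutant, against 129683 and 156269 FPKM in WT. Of these 6 rose and none fell (median 0.20), led by RBCS2B, a small subunit of Rubisco, from 7.20 and 8.33 FPKM to as much as 15.7 FPKM (0.86 ± 0.14, adjusted p = 0.00147). LHCB6, RBCS1A, RBCS3B, PSAD1 and LHCB2.1 rose by 0.33 to 0.40, each is lost without at least 2 of the 4 libraries (adjusted p 0.052 to 0.231), and the count is 1 without atbmi1ab_strong replicate 1 or without atbmi1abc replicate 2. Of 14 regulators of greening and chlorophyll synthesis 10 rose and none fell, with a median of 0.80. The share of all tested loci that rose was 32.1%. GNC and GNL, GATA factors that promote greening, rose by 1.29 ± 0.28 (adjusted p = 0.00554) and 1.42 ± 0.44 (adjusted p = 0.0258), GNC from 0.621 and 0.693 FPKM to 4.07 and 2.25 FPKM. ELIP2, a light-induced pigment-binding protein, rose from 117 and 129 FPKM to 330.5 and 269 FPKM (1.27). GNL and ELIP2 are lost without atbmi1ab_strong replicate 1 or 2 or atbmi1abc replicate 1 (0.0538 to 0.147), and GLK1 without atbmi1abc replicate 1 (0.0576). GLK2 (0.83), GLK1 (0.73), HY5 (0.79), CAO (0.91) and GUN4 (0.81) rose as well, and the count is 6 without atbmi1ab_strong replicate 1 and 5 without atbmi1abc replicate 1.

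Of 10 tested shoot meristem genes 5 rose and none fell (median 0.55), beside 32.1% of all tested loci that rose. CUC1, which sets organ boundaries, went from 7.71 and 6.23 FPKM to 20.5 and 26.4 FPKM (1.61 ± 0.16, adjusted p = 0.00012), and the homeobox gene KNAT6 from 8.44 and 8.95 FPKM to 19.6 and 19.6 FPKM (1.09 ± 0.19, adjusted p = 0.00231). BP (0.79), KNAT2 (0.98, lost without atbmi1ab_strong replicate 1 at 0.0582) and AIL7 (0.96) rose, and STM, which maintains the meristem, was at 2.84 and 2.63 FPKM against 3.11 and 4.20 FPKM and was not called (0.31, adjusted p = 0.105). Of 16 leaf polarity genes 6 rose and none fell (median 0.20), a share near the 32.1% of all tested loci. They included KAN2, which acts on the lower leaf side, from 6.56 and 8.19 FPKM to 16.7 and 20.4 FPKM (1.23 ± 0.19, adjusted p = 0.00106), and PHB, which acts on the upper side, from 22.5 and 26.7 FPKM to 48.4 and 51.1 FPKM (0.99 ± 0.10, adjusted p = 0.000154). KAN1, a relative of KAN2, rose by 0.68.

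The flowering-time genes of the list went down or did not pass. Of 21 tested 8 fell and none rose (median -0.24), beside 25.2% of all tested loci that fell and 32.1% that rose. FPF1 and VIN3, which are outside this list, rose as given above. SMZ, a repressor of flowering, fell from 14.7 and 16.0 FPKM to 2.79 and 2.99 FPKM (-2.07 ± 0.20, adjusted p = 0.000102), and its relative TOE1 from 28.7 and 36.0 FPKM to 10.0 and 12.7 FPKM (-1.43 ± 0.14, adjusted p = 0.000136). SVP, another repressor, was already low, at 1.51 and 1.51 FPKM against 0 and 0.323 FPKM (-1.12, adjusted p = 0.003), after 37.3 and 46.2 FPKM in WT. Activators fell as well, SOC1 by 1.04, AGL24 by 0.54 and GI by 0.72. SOC1 is lost without atbmi1ab_strong replicate 2 (0.07) and AGL24 without replicate 1 of either genotype (0.177 to 0.219). FLC, the vernalization-controlled repressor, was at 64.6 and 77.7 FPKM against 45.1 and 37.1 FPKM and was not called (-0.78, adjusted p = 0.085). Of 15 floral organ genes 3 had enough signal to test, and SEP2, a co-factor of floral organ identity, rose from 0.521 and 0.480 FPKM to 8.98 FPKM or more in each library (2.74 ± 0.14, adjusted p = 4.03e-06). None of 6 endosperm and 5 pollen genes passed the filter on low values, and each of these lists summed to at most 3.07 FPKM in the libraries compared.

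Of 12 stomatal genes 4 rose and none fell (median 0.21 without 1 gene listed at 0), a share near the 32.1% of all tested loci. They were led by SCRM, which drives the lineage and cold responses, from 70.7 and 83.9 FPKM to 328 and 345 FPKM (2.11 ± 0.12, adjusted p = 6.92e-06). STOMAGEN, a peptide that promotes stomata, rose from 3.96 and 4.38 FPKM to 9.15 and 10.0 FPKM (1.03 ± 0.14, adjusted p = 0.000602). SCRM2, a relative of SCRM, rose by 0.64, a call lost without atbmi1abc replicate 1 (0.0551). Of 7 trichome genes 1 rose, EGL3 (0.57), and 3 fell, CPC (-1.38), GL3 (-1.04) and MYB23, which was at 2.07 and 1.68 FPKM and listed at 0 in the triple mutant. Of 14 auxin genes 2 rose, the auxin-synthesis genes YUC4 (1.26) and YUC6 (0.84), and 2 fell, the carrier PIN3 (-1.21) and YUC3 (-0.90). The trichome, auxin and flavonoid counts stand beside 32.1% of all tested loci that rose and 25.2% that fell. EGL3 is lost without atbmi1ab_strong replicate 1 or atbmi1abc replicate 2 (0.103 to 0.104), and YUC3 without replicate 2 of either genotype (0.0825 to 0.0945). In flavonoid synthesis CHI rose by 0.91 and CHS by 0.76, and the activator MYB12 fell by 0.95, of 7 tested, and each of the 3 calls is lost without at least 1 of the 4 libraries (adjusted p 0.0515 to 0.153).

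Of 15 tested genes of DNA replication and cell division 10 rose and none fell (median 0.67), beside 32.1% of all tested loci that rose. MCM2, of the replicative helicase, went from 7.22 and 6.61 FPKM to 21.9 and 16.0 FPKM (1.32 ± 0.23, adjusted p = 0.00205), MCM3 from 8.14 and 6.97 FPKM to 23.2 and 15.2 FPKM (1.22), and the cyclin CYCA1-1 from 3.18 and 3.30 FPKM to 7.79 and 7.84 FPKM (1.06 ± 0.10, adjusted p = 0.000113). The count is 6 without atbmi1ab_strong replicate 2. Among the VIM genes, VIM1, which maintains CG methylation, rose from 19.0 and 18.4 FPKM to 55.8 and 58.2 FPKM (1.55 ± 0.13, adjusted p = 4.68e-05) beside VIM5. VIM3 (0.65, adjusted p = 0.0134) is lost without atbmi1ab_strong replicate 2 or atbmi1abc replicate 1 (0.0789 to 0.085).

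The triple-mutant libraries themselves differed at some loci. Among loci with a symbol and a mean of at least 10 FPKM, those with the largest difference included ERF104, an ethylene-response factor, at 82.8 and 4.61 FPKM, CAF1a, of RNA deadenylation, at 38.9 and 0.928 FPKM, and DIC2, a mitochondrial carrier, at 93.0 and 3.86 FPKM. Replicate 1 was the higher library in each case. The cold-response factors CBF1, at 11.6 and 0.116 FPKM, and CBF2, at 14.7 and 0.232 FPKM, and the abscisic acid hydroxylase CYP707A3, at 41.3 and 1.79 FPKM, differed in the same direction, against 0.929 to 1.54 FPKM for the CBF genes and 15.9 and 11.5 FPKM for CYP707A3 in the double mutant. None of the 3 was called (adjusted p 0.485 to 0.762), so no direction is read for them. These genes were chosen after their values were seen.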

How the data were processed

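RNA-seq was made from whole Arabidopsis seedlings, 2 libraries for each of 5 genotypes. The deposited values are FPKM, made by the authors with FastQC, TopHat, Cufflinks and Cuffdiff on TAIR10, per the submitters' processing notes. Versions, options and the annotation, and thus the handling of strand and of reads shared between copies (LHCB1, RBCS, SESA, CASP, MLP, PIP, TIP, PDF1.2 and PDF1.3), were not stated in any source used here. The unit was read from those tools and from the values. Of 27086 entries, 270 merge several loci, and 26441 matched RefSeq, which gave symbols.

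Loci averaging 1 FPKM or more were fitted as log2(FPKM + 1) with limma 3.58.1 (R 4.3.3, lmFit and eBayes with trend), with 1 coefficient per genotype over all 10 libraries and 5 residual degrees of freedom. P-values are two-sided, adjusted by Benjamini-Hochberg over all tested loci, and called under 0.05. With nothing saying that replicates were separate plants, they measure the spread between libraries, which may be technical. The fit was tested on simulated data. Figures used Python 3.11.15 and matplotlib 3.10.9.

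Named loci are the targeted genes, the 10 highest and 10 lowest called loci that have a symbol, average 2 FPKM or more in the 4 libraries and do not overlap, up to 5 loci each way listed at 0 in 1 genotype, and up to 3 called members each way per list. Other named genes, and the JAZ, TIP, PIP, MLP, defensin, VIM and glucosinolate families, were chosen after their values were seen. Members and lists were chosen with earlier results of these data known, so no set test was made. Promoters are the 300 bases before the RefSeq start of 26167 nuclear protein-coding loci (TAIR10.1); a window of 250 bases before and 50 after was planned for a promoter table that was not given. In all, 16 alternatives were run. Also, 1 locus of the lists is not reported here.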

Additional observations from a re-analysis of the deposited data

How the results depend on the processing

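Over 16 alternatives the higher loci numbered 4662 to 7633 and the lower 3589 to 5593, beside 6256 and 4904. Leaving out 1 library at a time gave 4662 to 5069 higher and 4050 to 4367 lower. The rise of BMI1A missed the threshold under median-ratio scaling (0.34), with no filter (0.44) and with only the 4 libraries compared (0.44), and ran from 0.25 to 0.63 with 1 library left out. BMI1C passed it under quantile normalization (0.47, adjusted p = 0.046) and ran from -0.10 to 0.31 with 1 library left out, turning negative (-0.10) without atbmi1abc replicate 2. The cause was not tested. Quantile normalization moved the median of all tested loci from 0.10 to 0.20 and median-ratio scaling to 0.0037, and 64.0% and 47.6% of called loci were then higher, beside 56.1%. No called list member changed sign under either scaling.

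Replicate numbers are shared by the genotypes, but whether they pair the samples is not stated, and the correlation of same-numbered deviations was 0.119 over the 2 numbers. With the replicate block 6187 loci were higher and 4850 lower, and AIL5, DGAT1, ELIP1, PAD4 and PDAT1 missed the threshold among the called list members.

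A further 3409 comparisons set a called named or listed gene, or BMI1C, against an alternative. Of these, 3214 kept direction and side of the threshold, 193 lost the call, 1 gained it and 1 turned negative. Other genes not called in the reported fit were left out, so gains of a call are hardly counted. ABI3, L1L and SESA1, for example, gained a call without atbmi1a replicate 1. Some list counts moved by over 1.5 times. Median-ratio scaling left 3 photosynthesis and 4 oil synthesis genes higher, and quantile normalization gave 8 stomatal genes higher. The filter at a mean of 5 FPKM, which tests fewer loci, left 6 embryo regulators, 4 root stem cell and 3 shoot meristem genes higher and 4 root hair, 7 suberin and 4 xylem genes lower. The filter on the 4 libraries left 5 flowering-time genes lower. Without atbmi1abc replicate 2, 4 auxin and 3 abscisic acid genes were higher. Counts of flavonoid and heat-shock genes, at most 3 each in the reported fit, moved under most alternatives. FPKM carries no read depth, so low values cannot be given a counting error.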
